A study of Mus musculus with 8 samples.

Results

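The homeobox patterning transcription factors described here are 46 genes, taken by symbol from a count table of 55416 genes. They are regional homeobox factors of the forebrain, picked by name. Factors listed as markers of the layers of the cortex were left out, although Pou3f3, an upper-layer factor, is among the members. The libraries hold mRNA of the cerebral cortex of mice, 4 from AGO2_L192P/+ heterozygotes (a knock-in of L192P into Ago2, called L192P here) and 4 from wild-type mice (WT). The study's methods number the residue of the mouse allele differently, and the name in the labels is used here. Argonaute 2, which Ago2 encodes, carries a miRNA to sites in mRNAs and lowers their output, and the comparison asked which transcripts differ between the cortices of both genotypes. The knock-in was made with CRISPR/Cas in C57BL/6JUke zygotes, and founders and later heterozygotes were mated with wild-type C57/Bl6 animals. Age, sex and treatment are not given in the labels, and nothing there ties a replicate number to a litter or a day.

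Homeobox genes encode transcription factors that bind DNA through a homeodomain, often at short AT-rich sites. In the embryonic forebrain, combinations of them divide the tissue into territories such as cortex, striatum, thalamus and hypothalamus, and many stay on in the adult neurons of the territory they helped to form. The adult cortex therefore transcribes some of them strongly and others hardly at all.

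DESeq2 gave 40 of the 46 members an adjusted p, and 6 of the 40 (15.0%) passed 0.05, all of them higher in L192P: Otp, Lhx5, Irx2, Gbx2, Zfhx3 and Zfhx4. Among all 18627 genes tested 1.36% passed, 0.789% higher and 0.569% lower in L192P. The members were chosen with earlier results of these data known, so their share is not that of a set picked blind. Otp, Lhx5, Irx2 and Gbx2 also reached a mean above 10 normalized counts only through their L192P values. The median log2 fold change (L192P minus WT) of the 40 tested members was 0.12, against 0.0019 over all genes tested, and 28 of the 40 lay above 0. An unadjusted p under 0.05 in DESeq2 was found for 19 of the 46 members, 16 of them higher in L192P. Hmx3 and Barhl1 are among these 16 but had no adjusted p, so they do not belong to the genes tested. Of the 18627 genes tested, 1758 had such a p, 921 of them higher. A change in bulk RNA of this kind cannot tell a different number of cells of a type from a different amount of RNA per cell.

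Depth and quality set the limits of these values. Total counts ran from 20396357 to 43575900 per library, with WT replicate 2 the deepest. Replicate 1 of either genotype held almost no Xist RNA, 0.93 normalized counts in L192P and 1.82 in WT, whereas the other 6 libraries had 5185 to 7257. Ago2 itself hardly differed, at 2291 ± 75.1 normalized counts in the L192P and 2246 ± 130.4 in the WT libraries (SD, n = 4). As a check of the tissue, all 12 markers of cortical excitatory neurons were detected in every library, with summed levels of 95017 to 102943 normalized counts in L192P and 107778 to 117715 in WT. A normalized count is a count divided by the size factor of its library.

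**Figure D1:**
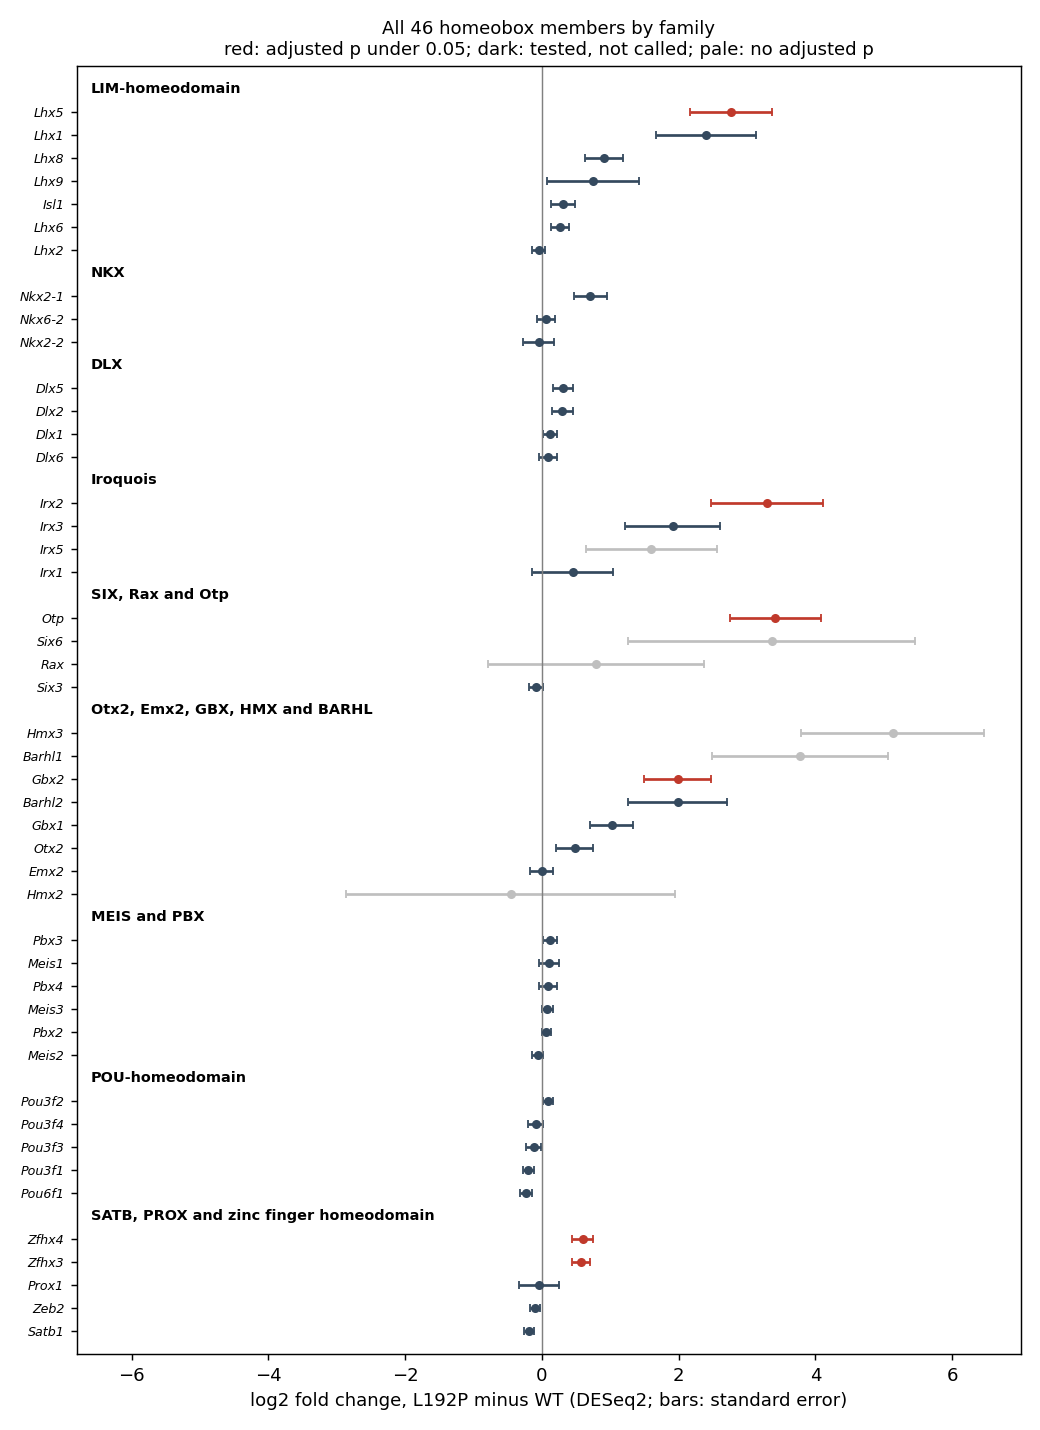
Log2 fold change (L192P minus WT) of all 46 members with its standard error, grouped by family. The 6 members with an adjusted p under 0.05 (red) all lie right of 0, from Zfhx3 at 0.58 to Otp at 3.41, whereas the MEIS and PBX members lie within 0.12 of 0.

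Otp, Orthopedia, is required for the neuroendocrine neurons of the hypothalamus, among them those that make vasopressin and oxytocin. The gene lies on chromosome 13, 95012109 to 95021638 (GRCm39, plus strand), and no exon of another gene overlaps it. In L192P replicates 1 to 4 it had 64.5, 12.5, 41.5 and 43.1 normalized counts, and in WT 11.8, 1.13, 1.09 and 1.17. The lowest L192P library lay just above the highest WT library, and the other 3 WT libraries rested on 1 or 2 counts each. Mean levels were 40.4 ± 21.3 in L192P and 3.81 ± 5.35 in WT (SD, n = 4). The log2 fold change was 3.41 (SE 0.66, DESeq2 adjusted p = 0.000129). Of the 19 alternatives with an adjusted p for Otp, 17 kept it past the threshold, over a range of 2.8e-08 to 0.0659. Without WT replicate 1, which stood apart from the other WT libraries, its log2 fold change was 5.17 (DESeq2 adjusted p = 9.92e-07).

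Lhx5, a LIM-homeodomain factor of the developing hypothalamus, hippocampal primordium and Cajal-Retzius cells, followed with 28.0, 15.9, 55.3 and 22.8 normalized counts in L192P and 10.9, 1.70, 4.35 and 1.17 in WT. No L192P library overlapped the WT range. The gene lies on chromosome 5, 120569764 to 120579292 (GRCm39, plus strand), and shares 102 exonic bases with Lhx5as1 on the opposite strand. Means were 30.5 ± 17.3 and 4.53 ± 4.48 (SD, n = 4), for a log2 fold change of 2.77 (SE 0.60, DESeq2 adjusted p = 0.00138). Without L192P replicate 3, its highest library, the log2 fold change was 2.31 and the adjusted p 0.0641. Leaving out WT replicate 1 gave 3.72, with an unadjusted p of 1.23e-07 and no adjusted p.

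Irx2 belongs to the Iroquois family, which patterns the neural tube behind the telencephalon. Its levels were 14.0, 4.55, 64.6 and 8.39 normalized counts in L192P and 1.82, 2.82, 1.09 and 3.51 in WT. The groups did not overlap, but L192P replicate 3 stood far above the other 3, and the lowest L192P library exceeded the highest WT library by about 1 normalized count. With means of 22.9 ± 28.1 and 2.31 ± 1.07 (SD, n = 4), the difference was 3.29 on the log2 scale (SE 0.82, DESeq2 adjusted p = 0.0098). Without L192P replicate 3 it was 1.96 with an unadjusted p of 0.0237, and without WT replicate 1 it was 3.19 with an unadjusted p of 0.000253, both without an adjusted p. Irx2 lies on chromosome 13, 72776906 to 72782317 (GRCm39, plus strand), and shares 100 exonic bases with Gm20554 on the opposite strand.

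Gbx2 shapes the midbrain-hindbrain boundary and is a regulator of thalamic neurons. Normalized counts were 46.7, 15.9, 40.4 and 16.8 in L192P against 7.28, 9.04, 4.35 and 9.37 in WT. L192P replicates 1 and 3 were high and replicates 2 and 4 lay closer to WT, without overlap. The means of 29.9 ± 15.9 and 7.51 ± 2.30 (SD, n = 4) gave a log2 fold change of 1.99 (SE 0.49, DESeq2 adjusted p = 0.00821). The adjusted p rose to 0.0922 without L192P replicate 1, to 0.101 without L192P replicate 3 and to 0.0621 without WT replicate 3, and without WT replicate 1 there was none (unadjusted p = 0.000284). Gbx2 lies on chromosome 1, 89855678 to 89858920 (GRCm39, minus strand), and 966 of its exonic bases are also covered by the lncRNA D130058E05Rik on the other strand, so part of its count is uncertain.

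Zfhx3 and Zfhx4 are giant factors with several homeodomains and zinc fingers, and Zfhx3 is known for its role in the circadian clock of the suprachiasmatic nucleus. Their levels were moderate. Zfhx3 had 363, 348, 491 and 369 normalized counts in L192P and 276, 247, 287 and 246 in WT. The means of 393 ± 66.1 and 264 ± 20.7 (SD, n = 4) correspond to 0.58 on the log2 scale (SE 0.13, DESeq2 adjusted p = 0.00194). For Zfhx4 the libraries held 390, 355, 466 and 339 normalized counts in L192P and 269, 194, 319 and 246 in WT. Every L192P library lay above every WT library for both genes, and replicate 3 was the highest of its genotype in each case. The Zfhx4 means of 387 ± 56.4 and 257 ± 51.9 (SD, n = 4) gave 0.60 (SE 0.15, DESeq2 adjusted p = 0.013). Zfhx3 kept an adjusted p under 0.05 with each library left out, the highest being 0.0304 without WT replicate 2. Zfhx4 lost it without L192P replicate 3 (0.124), WT replicate 2 (0.0934) and WT replicate 4 (0.0862). Zfhx3 spans chromosome 8, 108669276 to 109688262, and Zfhx4 chromosome 3, 5283586 to 5480917 (GRCm39, both on the plus strand), and 562 exonic bases of Zfhx3 are covered by Gm63934 on the other strand.

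**Figure D2:**
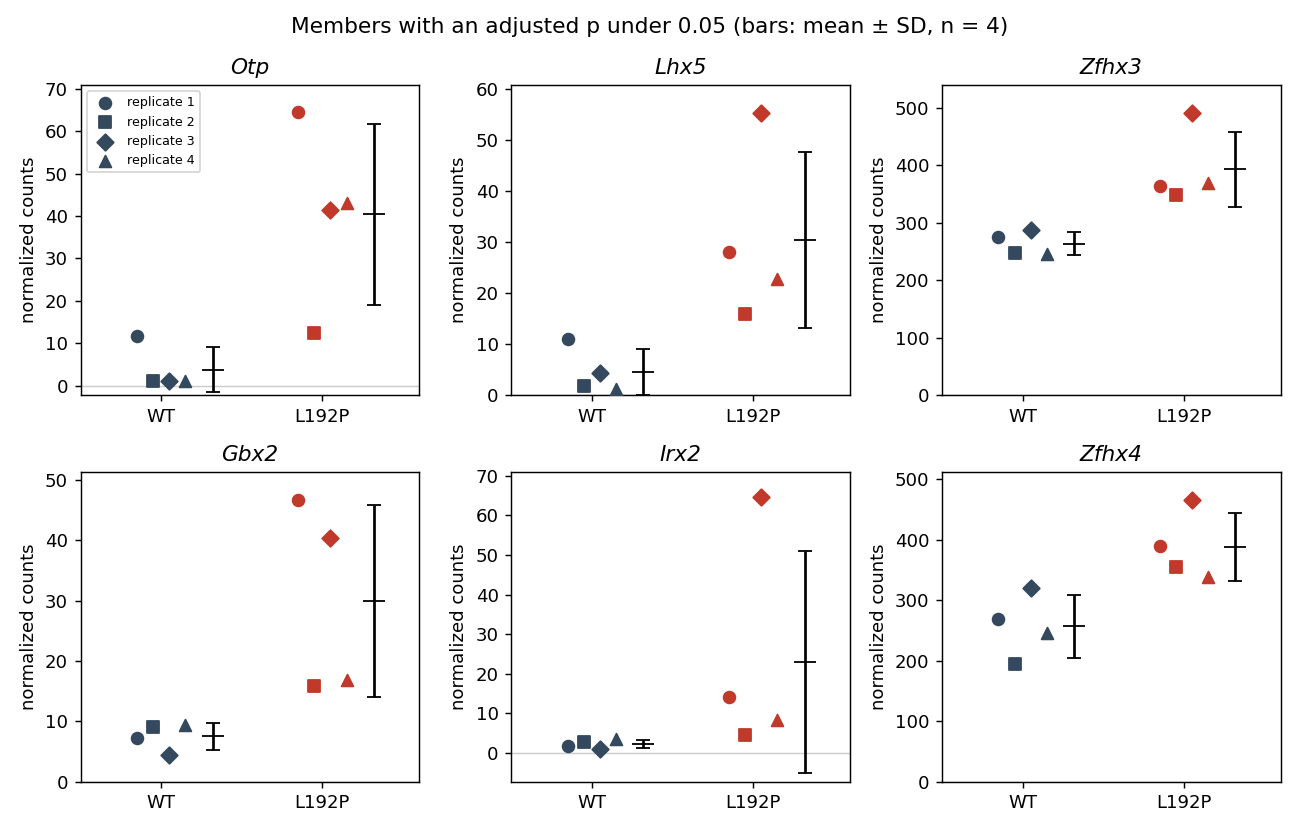
Normalized counts of the 6 members with an adjusted p under 0.05 in each library, with mean and SD (n = 4) beside the points and a marker shape for each replicate number. The L192P points (red) lie above all WT points (dark) in each panel, and L192P replicate 3 is the highest point for Lhx5, Zfhx3, Irx2 and Zfhx4.

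The replicate numbers were treated as pairing the libraries, so these results are also given with that number as a block in the fit. It called 4 of the 30 members with an adjusted p, Zfhx3, Zfhx4, Pou6f1 and Satb1, where 4.25% of all genes passed. Otp, Lhx5, Irx2 and Gbx2 fell under its filter on low counts. With that filter off the block called 6 members of 46, against 1.12% of all genes: Otp (adjusted p = 4.11e-06), Lhx5 (0.00134), Zfhx4 (0.000749), Zfhx3 (0.00192), Pou6f1 (0.013) and Lhx1 (0.0467). Irx2 and Gbx2 then had a DESeq2 adjusted p of 0.103 and 0.0789.

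The number of members called depended on the method. edgeR's quasi-likelihood test called 0 members, where 0.314% of all genes passed, with 13 members at an unadjusted p under 0.05 and a smallest adjusted p of 0.055 for Otp. limma voom called 0 as well, against 0.266% of all genes, again with 13 members at an unadjusted p under 0.05. The share of all genes at that unadjusted p was not counted for edgeR or voom. With 1 surrogate variable in the fit DESeq2 called 9 members (1.98% of all genes), the same 6 together with Lhx1, Lhx8 and, lower in L192P, Pou6f1. Among replicates 2 to 4 alone, which share the Xist-high pattern, DESeq2 called 5 members (3.46% of all genes), of which Zfhx3 and Zfhx4 were among the 6 above, while Otp (log2 fold change 4.84), Lhx5 (3.75), Irx2 (3.37) and Gbx2 (1.66) had no adjusted p. Without L192P replicate 3 there were 4 calls (0.76% of all genes), Otp, Zfhx3, Lhx8 and Gbx1.

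The 4 promoters below belong to the called members that had a RefSeq entry. Each is the run of 250 bases before a transcript start listed by RefSeq, 5′ to 3′ on the strand of the gene, with coordinates of GRCm38.p6. Capitals mark the GC box GGGCGG and the CCAAT box on either strand, which can overlap one another. The Zfhx3 window holds neither. Its RefSeq start lies inside the GENCODE span of the gene given above and not at the 5′ end of that span.
Otp, chr13:94875386-94875635, plus strand: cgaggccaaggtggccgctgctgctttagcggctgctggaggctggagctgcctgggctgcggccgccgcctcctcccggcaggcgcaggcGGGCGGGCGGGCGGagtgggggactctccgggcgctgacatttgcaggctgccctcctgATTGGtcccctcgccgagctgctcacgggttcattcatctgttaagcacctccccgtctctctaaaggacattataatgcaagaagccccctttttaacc
Irx2, chr13:72628570-72628819, plus strand: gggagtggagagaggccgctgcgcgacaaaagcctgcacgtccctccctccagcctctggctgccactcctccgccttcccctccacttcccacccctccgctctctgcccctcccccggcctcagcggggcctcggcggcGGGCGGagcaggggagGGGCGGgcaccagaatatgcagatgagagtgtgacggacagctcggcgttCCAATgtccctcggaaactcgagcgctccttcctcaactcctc
Gbx2, chr1:89931177-89931426, minus strand: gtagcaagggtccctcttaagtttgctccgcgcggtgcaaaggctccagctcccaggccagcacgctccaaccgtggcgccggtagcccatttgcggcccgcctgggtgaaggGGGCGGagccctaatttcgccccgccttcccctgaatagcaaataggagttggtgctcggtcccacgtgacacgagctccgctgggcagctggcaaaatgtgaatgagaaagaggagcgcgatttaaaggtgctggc
Zfhx3, chr8:108714394-108714643, plus strand: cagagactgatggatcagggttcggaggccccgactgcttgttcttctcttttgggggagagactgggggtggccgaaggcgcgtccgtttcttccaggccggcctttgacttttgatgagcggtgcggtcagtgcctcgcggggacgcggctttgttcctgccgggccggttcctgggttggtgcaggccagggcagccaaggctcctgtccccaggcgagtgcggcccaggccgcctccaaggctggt

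The promoters of the members were rich in CpG. Windows of 300 bases (250 before and 50 after the start) were listed by RefSeq for 36 of the 46 members, 8 of them with more than 1 window, 52 windows in all. The table held 32851 windows of 27025 genes. The median number of CpG was 17 in the windows of the members and 7 over all. The GC box occurred in 26 of the 52 windows and 35.7% of all, the CCAAT box in 23 and 37.4%. The homeodomain core TAATTA was found in 4 of the 52 and 5.29% of all, the TATA box TATAAA in 5 and 13.6%, and TGACAG, a site for MEIS and other homeodomain factors of the TALE class, in 7 and 19.2%. Windows of 1 gene can overlap. All letters were searched on both strands.

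The 3′ UTRs of the called members were searched for exact matches to the seeds, bases 2 to 8, of 12 miRNAs that are abundant in brain or were studied with Argonaute 2. Otp (1513 bases) and Gbx2 (667 bases) held no such site. Not all of the 12 are printed below. The others searched were miR-5121, miR-29a-3p, miR-138-5p, miR-7a-5p, miR-153-3p and miR-125b-5p. In the mature miRNAs below, from RefSeq, the seed is in capitals.
let-7a-5p: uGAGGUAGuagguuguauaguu
miR-9-5p: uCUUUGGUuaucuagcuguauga
miR-92a-3p: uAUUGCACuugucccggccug
miR-26a-5p: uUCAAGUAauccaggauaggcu
miR-128-3p: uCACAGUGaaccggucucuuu
miR-30a-5p: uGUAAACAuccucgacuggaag
Sites of these printed miRNAs in the called members follow as windows of 29 bases of GRCm39, with the 7 matching bases in capitals. Zfhx4 also held a site for miR-5121 and Zfhx3 one for miR-29a-3p, which are not printed. Such sites were present in 11.4% and 16.9% of all genes with a 3′ UTR. Where a gene had several sites for a miRNA, the first in its 3′ UTR is shown, since Zfhx3 had 2 for miR-128-3p and 3 for miR-30a-5p.
Irx2, let-7a-5p, chr13:72782061-72782089: caaaggtggtcCTACCTCaccttttaagt
Lhx5, miR-9-5p, chr5:120578533-120578561: aatttctcgggACCAAAGtcaatattctg
Zfhx4, miR-92a-3p, chr3:5480176-5480204: ggcctcctaagGTGCAATcctgccgctat
Zfhx3, miR-92a-3p, chr8:109686643-109686671: gcttggtaataGTGCAATttctaccctcc
Zfhx4, miR-26a-5p, chr3:5479254-5479282: gtagtactgtaTACTTGAaactgtttaag
Zfhx3, miR-26a-5p, chr8:109685389-109685417: agggttctagtTACTTGAcaatttgtttc
Zfhx3, miR-128-3p, chr8:109686774-109686802: tgtcagtgtttCACTGTGccatgccttga
Zfhx3, miR-30a-5p, chr8:109685690-109685718: cgaggcacgcgTGTTTACgttaatgtgcg

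Zfhx3, with a 3′ UTR of 4531 bases, held sites for 5 of the 12 miRNAs, and Zfhx4, with 2713 bases, for 3, and miR-92a-3p and miR-26a-5p had a site in both. Over 14343 genes with a 3′ UTR, a site for miR-92a-3p was present in 8.28%, for miR-26a-5p in 12.4%, for let-7a-5p in 11.7% and for miR-9-5p in 15.7%. Among all 46 members the numbers were 4, 4, 5 and 3. Sites for miR-128-3p and miR-30a-5p were more common, in 24.9% and 17.5% of the genes and in 8 and 9 of the 46 members. Members that did not pass the threshold carried sites as well, as Pou6f1 and Prox1 with 4 of the 12 miRNAs each. These matches are a description of the sequence, and long UTRs have more of them.

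The remaining members of the LIM-homeodomain family split by level. Lhx2, a selector of cortical identity, was the most abundant by mean count, with 1173, 1542, 1343 and 1297 normalized counts in L192P and 1221, 1475, 1531 and 1306 in WT. On the log2 scale it differed by -0.048 (SE 0.10), and the groups overlapped throughout. Lhx1, the closest relative of Lhx5, had 16.8, 12.5, 45.0 and 7.19 against 6.37, 1.69, 7.60 and 0, so 1 L192P library lay within the WT range (log2 fold change 2.40, SE 0.73, DESeq2 adjusted p = 0.0644). Its exons share 1661 bases with Lhx1os on the opposite strand. Lhx8, which specifies cholinergic neurons of the basal forebrain, had 130, 187, 68.0 and 178 in L192P and 98.3, 60.4, 84.7 and 57.4 in WT. L192P replicate 3 was the exception among its 4 libraries, and without it the DESeq2 adjusted p of Lhx8 moved from 0.0697 to 0.000371. Lhx9, Isl1 and Lhx6, factors of thalamic, striatal and cortical interneuron lineages in turn, had log2 fold changes of 0.75, 0.31 and 0.27 and did not pass.

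In the NKX family, Nkx2-1, the ventral telencephalic and hypothalamic factor, had a mean of 86.1 ± 18.4 normalized counts in L192P and 53.2 ± 11.7 in WT (SD, n = 4), and a DESeq2 adjusted p of 0.138. Nkx6-2, an oligodendrocyte factor and the most abundant of the 3, had 416, 495, 468 and 370 in L192P and 331, 460, 477 and 410 in WT. The DLX genes, which drive the differentiation of GABAergic neurons, all lay slightly above 0, from 0.089 for Dlx6 to 0.30 for Dlx5, and 0 of 4 passed in DESeq2 (1 had an unadjusted p under 0.05). The most abundant of them, Dlx1, had 1095, 1366, 958 and 1194 normalized counts in L192P and 1103, 1119, 1056 and 954 in WT.

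Among the other Iroquois genes, Irx3 had 7.47, 10.2, 29.98 and 8.39 normalized counts in L192P and 0.91, 5.65, 4.35 and 3.51 in WT. The groups did not overlap, and L192P replicate 3 again stood far above the rest, as for Irx2. Its mean stayed under 10 normalized counts, its log2 fold change was 1.92 and its DESeq2 adjusted p 0.185. Irx1, the most abundant Iroquois gene by mean count in WT, had 14.9, 19.3, 38.0 and 1.20 in L192P and 13.7, 15.3, 14.1 and 10.5 in WT, so that L192P spanned the WT range on either side. Its log2 fold change was 0.45 with an SE of 0.59, and the DESeq2 adjusted p was 0.926. Irx5 rested on 11, 3, 8 and 2 counts in L192P and 3, 1, 5 and 0 in WT and had no adjusted p.

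Six3, a factor of the anterior forebrain that adult striatal neurons retain, was the most abundant of its group. It had 618, 675, 532 and 561 normalized counts in L192P and 623, 567, 730 and 616 in WT (log2 fold change -0.085). The eye and hypothalamus factors Six6 and Rax were barely detected. Six6 had 1, 1, 0 and 4 counts in L192P and 0 in each WT library, and Rax 1, 3, 2 and 0 against 0, 1, 0 and 3.

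Of the remaining regional factors, Gbx1, a relative of Gbx2 in the ventral forebrain, had 77.5, 93.3, 39.2 and 85.0 normalized counts in L192P and 53.7, 36.7, 31.5 and 22.2 in WT (log2 fold change 1.02, SE 0.31, DESeq2 adjusted p = 0.0675). L192P replicate 3 lay within the WT range, and without it the DESeq2 adjusted p of Gbx1 was 0.0058. Hmx3, a hypothalamic and inner ear factor, had 5, 8, 3 and 5 counts in L192P and 0 in each WT library. Set against 3 counts over the WT group, the limit that a count of 0 allows, its L192P mean of 5.81 normalized counts was 8.99-fold higher. That ratio takes the L192P mean as exact and is no lower bound. The 95% interval of the DESeq2 log2 fold change of Hmx3 began at 2.50. Hmx3 had no adjusted p in DESeq2 with the filter on low counts, and with that filter off it passed (DESeq2 adjusted p = 0.0291, 7 of 46 members and 0.603% of all genes called). With the replicate block and the filter off it did not pass (DESeq2 adjusted p = 0.113). Barhl1 and Barhl2, factors of the diencephalon and hindbrain, had 5.61, 1.14, 24.2 and 2.40 and 22.4, 12.5, 36.9 and 5.99 normalized counts in L192P. The WT values were 0, 1.13, 1.09 and 0 for Barhl1 and 11.8, 5.08, 2.17 and 0 for Barhl2, and for Barhl1 the lowest L192P library (1 count) and the highest WT library (2 counts, in the deepest library) were set apart only by their size factors. Hmx2 had 2 counts in 1 L192P library and 2 and 1 in 2 WT libraries. Otx2 and Emx2, head and cortex patterning factors, did not pass (log2 fold changes 0.48 and -0.0046). Emx2, the most abundant of this group, had 146, 236, 265 and 223 normalized counts in L192P and 180, 223, 254 and 213 in WT.

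The MEIS and PBX genes, which encode partners that bind DNA together with other homeodomain proteins, showed the smallest differences. None of the 6 passed in DESeq2 or had an unadjusted p under 0.05, and their log2 fold changes ran from -0.059 (Meis2) to 0.12 (Pbx3). Meis2, the most abundant member of all by count, had 4466, 4511, 3784 and 4626 normalized counts in L192P and 4594, 4181, 4434 and 4910 in WT. For Meis3 the libraries held 900, 811, 748 and 751 in L192P and 778, 769, 775 and 712 in WT. The 95% interval of the Pbx2 log2 fold change, from -0.063 to 0.19, was the narrowest of the family.

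The POU genes leaned the other way. Pou6f1, a factor of cortical neurons, had 2721, 3001, 3044 and 3023 normalized counts in L192P and 2897, 3924, 3532 and 3534 in WT. WT replicate 1 fell among the L192P libraries, and the log2 fold change was -0.24 (SE 0.09, DESeq2 adjusted p = 0.208). With the replicate block it was -0.23 with an adjusted p of 0.00525. Replicate 1 was also the lowest library of either genotype for Pou3f3, an upper-layer factor, with 2591, 3223, 2954 and 2906 in L192P and 2460, 3471, 3390 and 3349 in WT. Pou3f1 had a log2 fold change of -0.20 (unadjusted p = 0.0165, DESeq2 adjusted p = 0.327), and Pou3f2 and Pou3f4 lay at 0.091 and -0.089.

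Satb1, a chromatin organizer with a homeodomain that matures cortical interneurons, was the 1 member whose L192P libraries all lay below WT. It had 2835, 2895, 2363 and 2828 normalized counts in L192P and 3069, 3076, 3035 and 3243 in WT. Means were 2730 ± 247 and 3106 ± 93.1 (SD, n = 4), and the log2 fold change was -0.19 (DESeq2 adjusted p = 0.26, or 0.0431 with the replicate block). Prox1, which marks granule cells of the dentate gyrus, was high in replicate 3 of both genotypes, at 600, 558, 950 and 480 in L192P and 599, 530, 960 and 582 in WT. Zeb2, a regulator of interneuron migration, had a log2 fold change of -0.10 and did not pass.

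Groups that did not overlap were counted over all members. They were 10 of 46, and 9 of these were higher in L192P: Otp, Lhx5, Irx2, Irx3, Gbx2, Hmx3, Barhl1, Zfhx3 and Zfhx4. Among the 40 members with an adjusted p, 7 were higher and 1 lower, where 5.97% of all genes tested did not overlap, 3.01% higher and 2.96% lower. Size factors matter here. In raw counts the lowest L192P library had 4 for Irx2, 7 for Irx3 and 14 for Gbx2. WT replicate 2, the deepest library, had 5, 10 and 16. For Otp the lowest L192P library had 11 counts and WT replicate 1 had 13. With TMM and total-count size factors 9 and 11 of the 46 did not overlap. Of the 40 these were 8 and 9, against 6.11% and 5.95% of all genes tested.

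**Figure D3:**
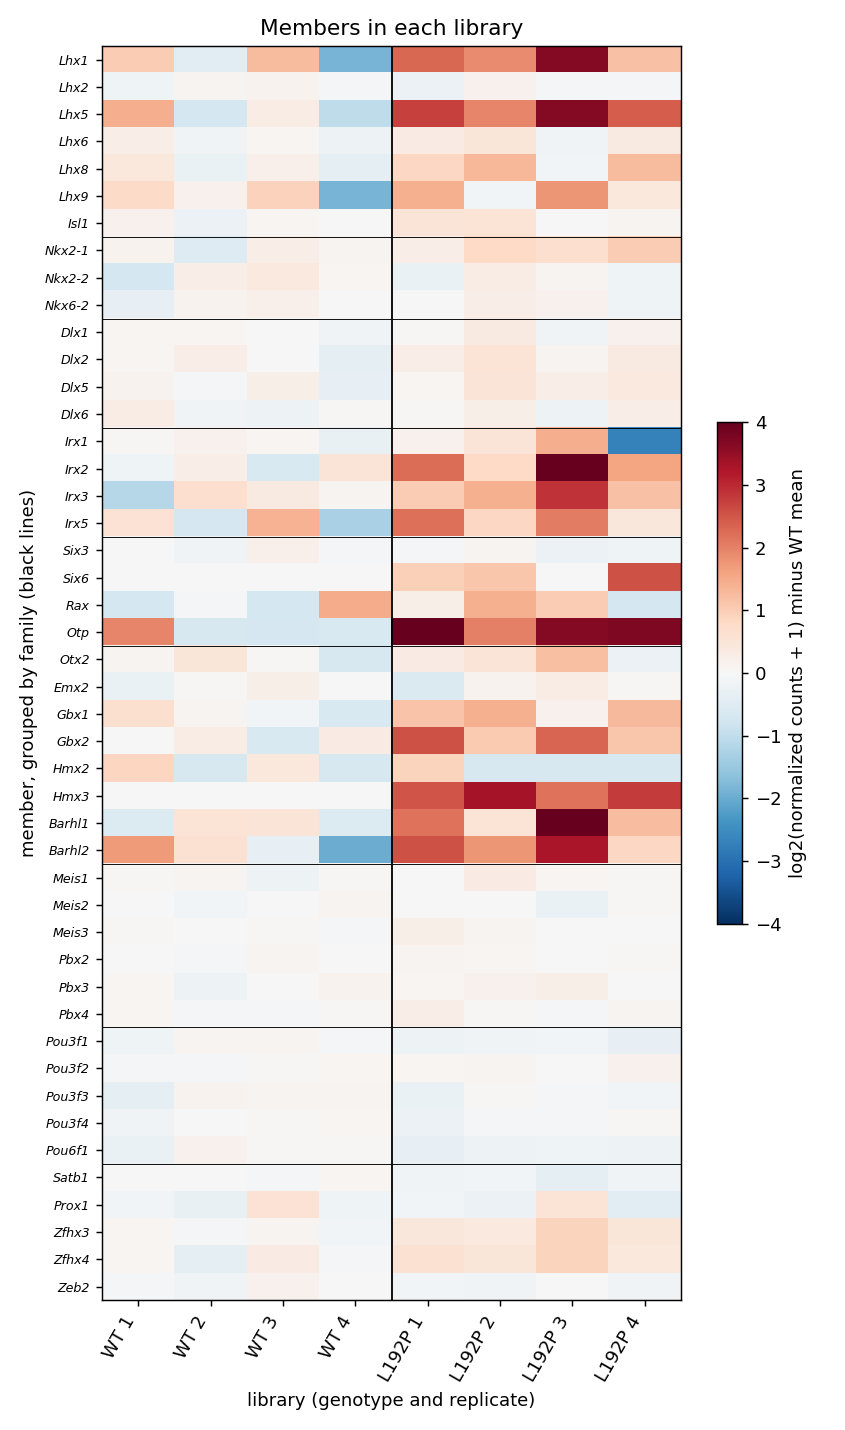
Log2 of normalized counts plus 1, minus the mean of the WT libraries, for the 46 members (rows, grouped by family) in the 8 libraries (columns). Strong red fields sit in the L192P columns at Lhx1, Lhx5, Irx2, Otp, Gbx2, Hmx3, Barhl1 and Barhl2, deepest in replicate 3 for 5 of them, whereas the MEIS, PBX and POU rows are nearly white.

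The members covered a wide range of levels. Per kilobase of exon, WT levels ran from 411 normalized counts for Pbx2, 410 for Pou3f3, 375 for Pou3f1 and 349 for Meis2 down to 3.42 for Gbx2, 1.68 for Lhx5, 1.32 for Otp and 0.70 for Irx2. Neighbours in that order, such as Pbx2 (SD 22.0) and Pou3f3 (SD 61.4), differed by less than their spread. The called members fell at 2 levels. Otp, Lhx5, Irx2 and Gbx2 had WT means of 2.31 to 7.51 normalized counts and reached a mean over all libraries above 10 through their L192P values, whereas Zfhx3 and Zfhx4 had WT means of 264 and 257. None of the 9 members with a mean over 1000 normalized counts passed in DESeq2, where 2.03% of all genes at that level did.

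**Figure D4:**
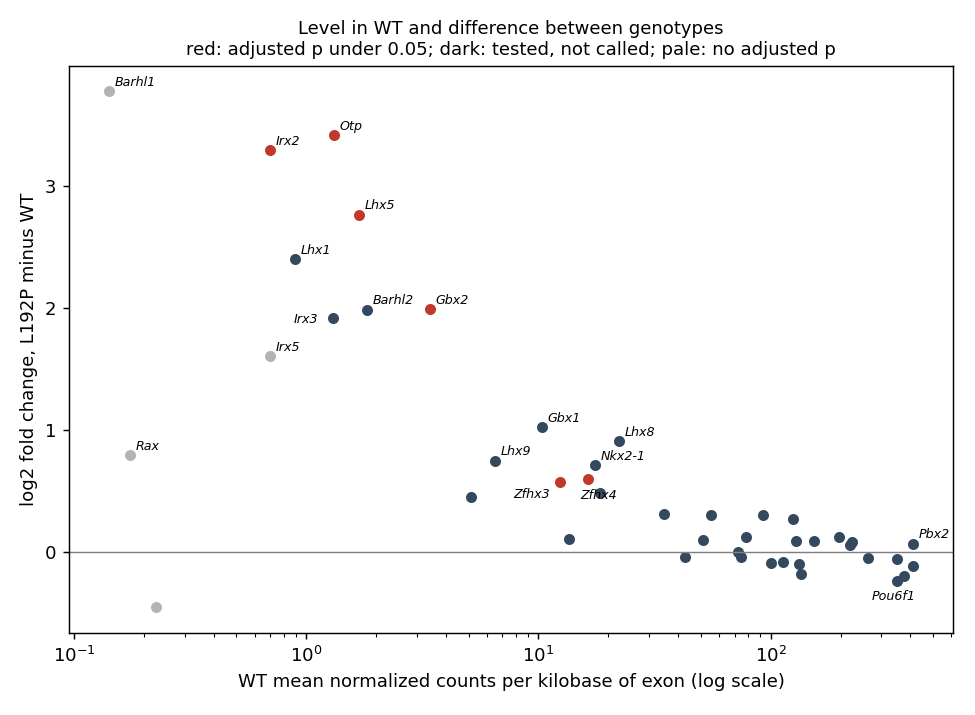
WT level per kilobase of exon (log scale) against the log2 fold change of each member with counts in WT, so both axes use the WT values. Members above 1.5 on the vertical axis all lie below 10 normalized counts per kilobase, and members above 100 per kilobase stay within 0.30 of 0.

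The pattern across L192P libraries differed between members. Replicate 3 was the highest L192P library for 15 and the lowest for 14 of the 39 members with a mean of at least 10 normalized counts. It was the highest for Lhx5, Lhx1, Irx2, Barhl2, Zfhx3 and Zfhx4 and the lowest for Lhx8, Gbx1, Lhx6, Isl1 and Satb1. Replicate 2, by contrast, was the highest L192P library for 14 members, among them Lhx8, Gbx1 and Isl1, and had the lowest Otp level.

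Markers of neighbouring brain regions were measured in the same libraries. Hypothalamic markers summed to 648 to 1696 normalized counts in L192P and 478 to 625 in WT, and 3 of 11 tested passed, all higher: the hormone genes Avp and Oxt and the neuropeptide gene Gal. Avp had 329, 19.3, 459 and 220 normalized counts in L192P and 21.9, 10.7, 11.9 and 10.5 in WT, and L192P replicate 2 was low for Avp, Oxt and Otp alike. Sim1, another factor of the same hypothalamic neurons, had 19.6, 1.14, 23.1 and 14.4 in L192P and 13.7, 0, 0 and 0 in WT, and WT replicate 1 was the high WT library for Sim1 as for Otp. Pmch and Hcrt, which define neurons of the lateral hypothalamus, reached 262 and 178 in L192P replicate 3 and were at 0 in L192P replicate 4, and Kiss1 had no count in any library.

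Thalamic markers summed to 7055 to 11962 in L192P and 5867 to 6995 in WT. All 12 lay above 0, with a median log2 fold change of 0.59, and Zic1 and Calb2 passed. The thalamic factor Tcf7l2 had 620, 251, 1070 and 190 normalized counts in L192P and 157, 207, 221 and 162 in WT, with replicates 1 and 3 high as for Gbx2. Basal forebrain cholinergic markers summed to 1229 to 2011 against 1007 to 1365, lowest in L192P replicate 3 as for Lhx8 and Gbx1, and 1 of 6, the neurotrophin receptor gene Ngfr, passed (152, 267, 176 and 234 in L192P, 131, 91.5, 93.4 and 85.5 in WT).

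Markers of the striatum summed to 35498 to 44271 in L192P and 46842 to 57951 in WT, without overlap. Of the 12 tested, 2 passed, both lower in L192P, among them the opioid peptide gene Penk. In the list for olfactory bulb and migrating neuroblasts the sums were 1052 to 1469 against 881 to 993, and 1 of 6, Eomes, passed and was higher. In that for cortical GABAergic interneurons they overlapped, at 38468 to 43118 against 39033 to 41443, and 1 of 12, Gad2, passed and was higher. Lists for cortical excitatory neurons, hippocampus, choroid plexus, astrocytes, oligodendrocytes, and blood and vessels gave 0 calls in DESeq2, with 5 markers at an unadjusted p under 0.05, all in the excitatory list. The part of these markers in the levels of the homeobox members was not tested.

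**Figure D5:**
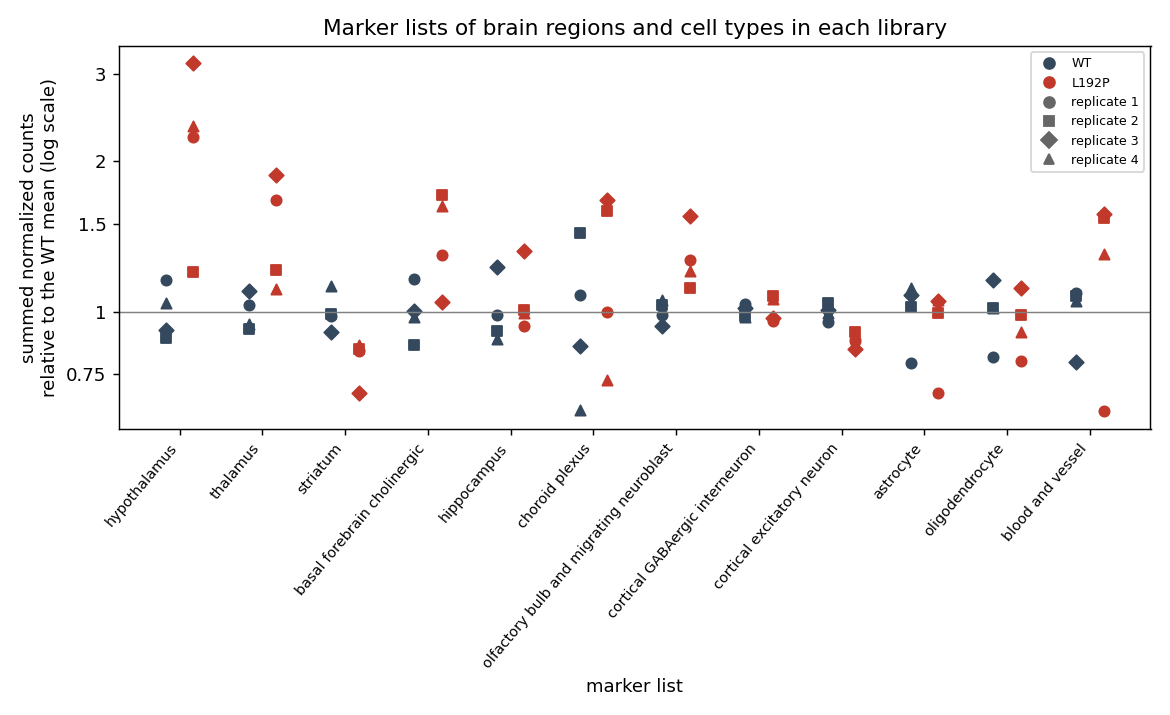
Summed normalized counts of 12 marker lists in each library, relative to the WT mean (log scale), with WT dark, L192P red and a shape for each replicate number. Hypothalamic, thalamic and olfactory bulb sums of L192P lie above all WT libraries, striatal and cortical excitatory sums below, and the hippocampal, choroid plexus, interneuron, astrocyte, oligodendrocyte and blood sums overlap.

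Related genes outside the 46 members were tested as well, against the 1.36% of all genes that passed. Of 21 cofactors of homeodomain proteins, 0 passed in DESeq2 and 3 had an unadjusted p under 0.05 (Lmo4, Ssbp3 and Eya2), with a median log2 fold change of -0.021. Lmo4, an adaptor that competes for the partners of LIM-homeodomain factors, had 5929, 5977, 5659 and 5844 normalized counts in L192P and 6647, 6578, 6411 and 6374 in WT, without overlap. Ssbp3, which stabilizes LIM-homeodomain complexes, did not overlap either, and both passed with the replicate block. Of 56 other homeobox genes 39 had an adjusted p and 1 passed, Pou4f1, a factor of the habenula and sensory neurons. It had 21.5, 3.41, 29.98 and 19.2 normalized counts in L192P and 2.73, 1.13, 3.26 and 3.51 in WT, with replicate 2 low and within the WT range (log2 fold change 2.88, SE 0.71, DESeq2 adjusted p = 0.00921). In DESeq2 the list had 0 genes called higher without L192P replicate 3, L192P replicate 4, WT replicate 1 or WT replicate 2. The median log2 fold change of its 39 tested genes was 0.07. Transcripts antisense to or overlapping members gave 0 calls among 8 tested in DESeq2, none at an unadjusted p under 0.05. Lhx1os, the partner of Lhx1 on the other strand, had 7.47, 4.55, 18.4 and 1.20 normalized counts in L192P and 0, 0, 1.09 and 0 in WT, and no adjusted p.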

How the data were processed

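Polyadenylated RNA of the cerebral cortex was sequenced by the authors from TruSeq Stranded mRNA libraries, and the labels' processing notes name STAR 2.7.9a, featureCounts 1.5.1 and DESeq2 1.40.2, with GRCm39 as the genome in the methods. The kit is that of the labels. The study's methods name Illumina's Stranded mRNA Prep kit and other releases of STAR and DESeq2, and which of them made these libraries and tables was not settled. The authors deposited raw counts per gene and, in a second table, normalized signal, the counts divided by size factors. Those size factors times the deposited signal gave back the counts within 2.9e-10. Whether strand was used in the counting is not given in the sources used here, so a gene and its antisense partner cannot be told apart.

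Counts were fitted here with DESeq2 1.42.0 (R 4.3.3) as in the study's methods, with genotype as the term, median-of-ratios size factors, and Benjamini-Hochberg adjusted p under 0.05 over all genes as the call, without a minimum fold change. Of 32676 genes with counts, 14037 were set aside by the filter on low counts and 12 by the Cook filter. Fold changes are unshrunken. The programs were tested on simulated data. All genes changed in that simulation were more abundant than Otp, Lhx5, Irx2 and Gbx2, and no effect of the replicate number was simulated. It therefore does not cover calls at the level of these members. Within a genotype, a chi-square test over genes gave 5.52 to 22.6 per degree of freedom for each pair, so every library counted as a replicate. Labels do not say that the replicates are separate animals, and p-values measure the spread between these libraries.

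Deviations from the group means correlated between same-numbered libraries at 0.63, 0.38, 0.23 and 0.33 over 13422 genes. Between libraries of different numbers the correlations ran from -0.375 to 0.144, and centring within each group pulls these down. The numbers, which come from the labels, were taken as pairing the libraries, a choice that was read from these same data.

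Alternatives were TMM and total-count size factors, edgeR 4.0.16, limma 3.58.1 (voom, and trend on log2 of the deposited signal plus 1), at least 10 counts in 4 libraries, the replicate block, no Cook filter, the low-count filter off or at 0.1, 1 surrogate variable (sva 3.50.0), replicates 2 to 4 only, and each library left out. The block without L192P replicate 1 and WT replicate 1, the block with the low-count filter off, and replicates 1, 2 and 4 only were added after seeing the data. Members and gene lists were chosen with earlier results of these data known. All 46 members are accounted for, with values per library for called members, members without overlap and a mean of at least 10, the most abundant of each family, and those with a library standing apart. Values of other members named were added for description.

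Gene positions, exons and 3′ UTRs come from GENCODE M39 (GRCm39), and promoters and miRNAs from RefSeq tables, with promoters on GRCm38.p6.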

Additional observations from a re-analysis of the deposited data

Results flagged for a closer look

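In each genotype the highest or lowest library was compared with the other 3, and it was noted where its gap to the nearest exceeded Dixon's 95% critical share of the range of the group. Of 114 groups screened, 90 of them for members, 14 stood out, where chance gives about 5.7. L192P replicate 3 stood high for Irx2 (64.6 normalized counts, others 4.55 to 14.0), Irx3 (29.98, others 7.47 to 10.2) and Zfhx3 (491, others 348 to 369), and low for Satb1 (2363, others 2828 to 2895) and for the summed striatal markers (35498, others 43053 to 44271).

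WT replicate 1 stood high for Otp (11.8, others 1.09 to 1.17) and low for Pou3f3 (2460, others 3349 to 3471). L192P replicate 1 was low for Pou6f1 (2721, others 3001 to 3044) and for the summed astrocyte markers (35388, others 51286 to 54503), and it was the only L192P library with counts of Hmx2 (1.87, others 0). WT replicate 3 was high for Prox1 (960, others 530 to 599) and low for the summed blood and vessel markers (1874, others 2484 to 2579). WT replicate 4 was low for Meis3 (712, others 769 to 778) and high for Rax (3.51, others 0 to 0.56).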

How the results depend on the processing

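The 6 calls among 40 tested members were 0 of 37 with edgeR and with voom, where 0.314% and 0.266% of all genes passed. With limma trend they were 3 of 44 (0.261% of all genes) and with the low-count filter at 0.1 they were 2 of 32 (1.65%). The block on replicates 2 to 4 gave 3 of 32 (4.13%) and replicates 1, 2 and 4 gave 3 of 40 (0.405%). At 0.1 and in that block, 4 of the 6 had no adjusted p. Leaving out 1 library gave 4 to 7, where 0.608% to 3.24% of all genes passed. All 253 gene calls were 53 with edgeR, 45 with voom, 63 with trend, 533 with the replicate block (the pairing fit), 500 among replicates 2 to 4, 572 there with the block, 76 among replicates 1, 2 and 4 and 112 to 496 with a library left out. Members without overlap were 17 among replicates 2 to 4, 18 among replicates 1, 2 and 4 and 10 to 15 with a library left out, where 19.1%, 11.8% and 8.41% to 12.7% of all genes tested did not overlap. Cofactor calls were 2 with the block, with or without the low-count filter, and 1 with a surrogate variable, against 0 with each library left out. Calls among other homeobox genes were 2 with total-count scaling and among replicates 2 to 4, 0 with edgeR, voom, trend, the filter of 10 counts, filtering at 0.1, the surrogate variable and replicates 1, 2 and 4, and 0 to 1 with a library left out. The causes were not tested.

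Directions were followed only for members called, without overlap at a mean of at least 10, or most abundant in their family. Among these, directions reversed for 6 members that did not pass. Their values are given here as log2 fold changes with, for a library left out, the other extreme. Emx2 gave 0.019 with total-count scaling, 0.069 among replicates 2 to 4 (0.068 with the block), 0.15 without L192P replicate 1, 0.0064 without WT replicate 2, 0.076 without WT replicate 3 and, lowest, -0.11 without L192P replicate 3. Irx1 (0.45 in the report) gave -0.18 with voom, -0.14 with trend, -0.17 without L192P replicate 3 (highest 0.83, without L192P replicate 4) and -0.15 with replicates 1, 2 and 4. Lhx2 gave 0.0094 without L192P replicate 1, 0.0026 without WT replicate 3 (lowest -0.12, without L192P replicate 2) and 0.0018 with replicates 1, 2 and 4. Meis2 gave 0.0036 without L192P replicate 3 (lowest -0.097, without WT replicate 2) and Six3 0.041 with replicates 1, 2 and 4. Nkx6-2 gave -0.018 among replicates 2 to 4 (-0.021 with the block), -0.0064 without L192P replicate 2 and -0.041 without WT replicate 1 (highest 0.13, without L192P replicate 4). Total-count scaling moved the median of all genes by 0.024 and the share of calls that were higher from 58.1% to 72.4%. Among members, the replicate block changed the calls named in the report. With 4 libraries a group and 1 or 2 counts in WT, fold changes of Otp, Irx2, Hmx3 and Barhl1 are coarse.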
